A study of Mus musculus with 9 samples.

Results

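Transcripts of adenosine and purine salvage were followed in intestinal epithelial cells of newborn mice with and without the transferrin receptor Tfr1. The 9 genes were Nt5e, Ada, Adk, Pnp, Xdh, Dck, Aprt, Hprt and Adora2b, a list drawn up with earlier results of these arrays known. The large difference of Ada between knockout and control was among those results, so Ada is treated as chosen by that value. Each gene was read by the probe set that carried its symbol alone and had the highest mean over all 9 arrays, a choice that used levels and not genotypes. By this rule 8 of the 9 genes were measured, of 18193 genes in all, and Adora2b, the adenosine receptor of the list, was not analysed here.

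The cells came from small intestine and proximal colon of pups killed on postnatal day 0, with 3 arrays for each of 3 genotypes. Knockout pups were Tfr1 IEC-KO, the deletion in intestinal epithelium. Rescue pups were Tfr1 IEC-KO;ROSA26 Tfr1R654A/+, so they carried the same deletion and 1 added allele with the R654A change. Control pups were Tfr1 fl/fl and had no other treatment. The sources used here do not name the Cre that made the deletion, nor say whether an array holds 1 pup or a pool, so p-values measure the spread between arrays, which may be technical. The cells were shaken off in EDTA, with no sorting step named, and a transcript can be low because fewer cells make it or because each cell makes less, which bulk RNA cannot tell apart.

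Adenosine is both a signal outside cells and a building block inside them. Nt5e, also called CD73, sits on the cell surface and cuts AMP to adenosine. Inside the cell adenosine has competing fates: Ada removes its amino group to give inosine, and Adk puts a phosphate back to give AMP. Pnp splits inosine and guanosine into free bases, which Hprt returns to the nucleotide pool or Xdh helps oxidize to uric acid, and Aprt salvages adenine. Dck phosphorylates deoxynucleosides. In mice Ada is known for high levels in the lining of the upper digestive tract.

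Values are log2 RMA values, so a difference of 1 is a doubling of signal, and levels of different genes cannot be ranked because each probe set binds with its own strength. Vil1 and Cdh17, markers of intestinal epithelium, read 11.8 to 12.8 in knockout arrays, 12.1 to 12.8 in rescue arrays and 12.3 to 12.5 in control arrays, so both were bright in all groups. Of 16 enterocyte markers, 2 were higher in knockout than in control (Krt20 by 2.14 and Krt8 by 0.68) and 3 lower (Cdx1, Lct and Cdx2, with changes of -1.54, -0.90 and -0.74), and the list median was -0.03 (limma). The brightest probe set of Tfrc, the gene of Tfr1, read 9.07 to 11.2 in the arrays labelled knockout, 10.2 to 11.1 in rescue arrays and 9.88 to 10.8 in control arrays, so it did not mark the deletion. Another Tfrc probe set read 5.57 to 6.14, 10.7 to 10.9 and 6.06 to 6.29 in the same order of groups, and thus marked the rescue arrays. The third read 4.09 to 4.46 in knockout, 8.65 to 9.07 in rescue and 4.56 to 4.72 in control arrays, lower in every knockout array than in control, by a change of -0.36 that did not pass when all probe sets were tested (limma, adjusted p = 0.134). Knockout replicates differed from each other: relative to the control mean, the median of 17 fibroblast markers (log2) was 3.68 and 2.93 in knockout replicates 1 and 2 but 0.29 in replicate 3. In rescue arrays it was 0.26 to 0.63. Xist, made from the inactive X chromosome, read 12.0 to 12.8 in knockout arrays, 6.45 to 6.83 in rescue arrays and 12.1 to 12.3 in control arrays, and Eif2s3y, on chromosome Y, read 2.34 to 2.82, 9.36 to 9.70 and 2.69 to 2.88 in the same order of groups. In each comparison with rescue this difference and the genotype cannot be told apart.

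Within the list, Nt5e, which forms adenosine, and Adk, which recycles it, differed between knockout and control. Between knockout and control, with Ada set aside as known beforehand, 1 of the other 7 measured genes was higher past the threshold, Nt5e, and 1 was lower, Adk. Over all genes 14.1% passed, 5.29% higher and 8.77% lower (limma, p adjusted over all genes, threshold 0.05). The remaining 5 genes, of purine bases and deoxynucleosides, did not pass.

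**Figure D1:**
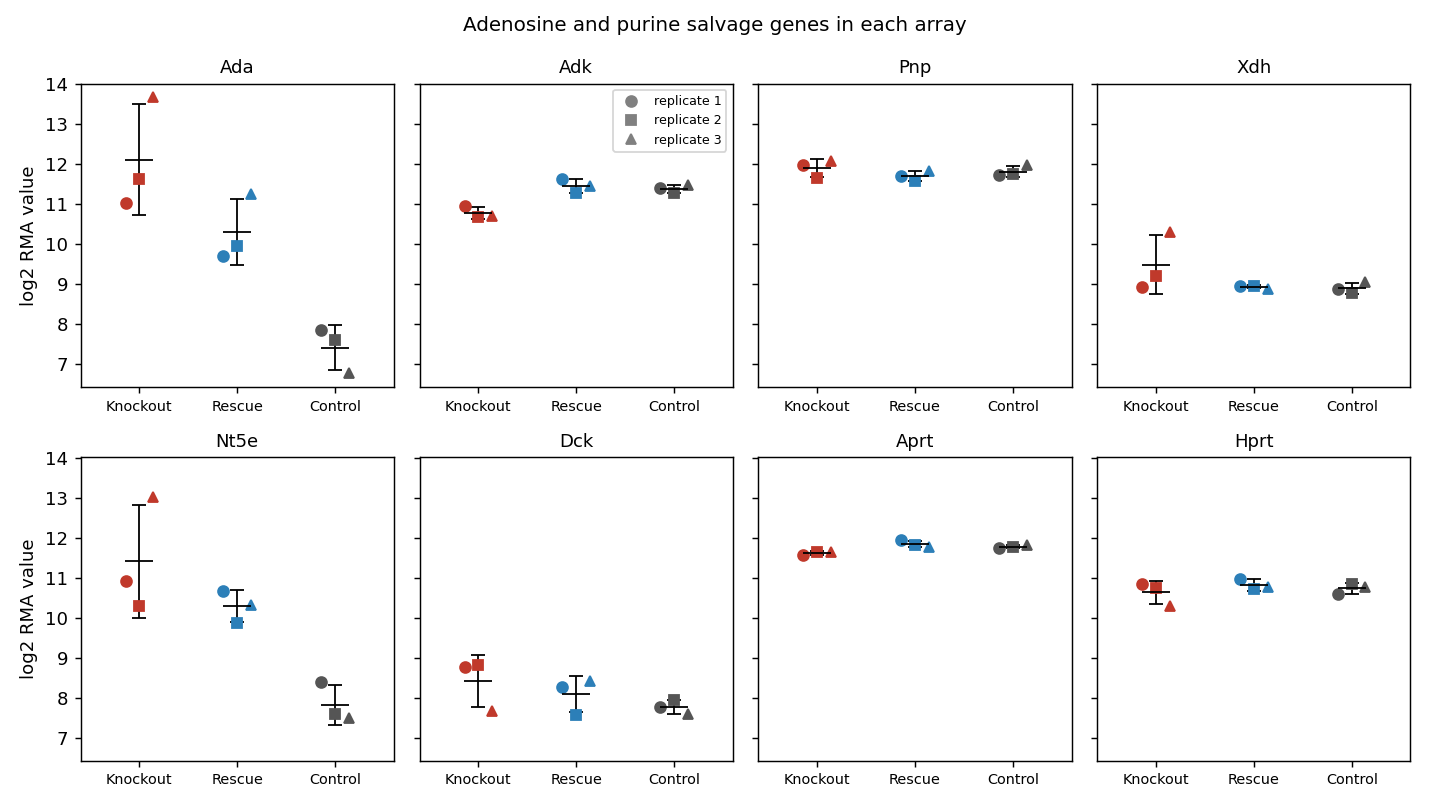
Log2 RMA value (vertical axis) of the 8 measured genes in each array, by genotype; symbols mark the replicate, horizontal bars the mean and whiskers the SD (n = 3). Ada and Nt5e lie higher in all knockout and rescue arrays than in any control array and Adk lower in all knockout arrays, while levels of different panels are not comparable.

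The upstream sequences of Nt5e, Ada and Adk are shown because these genes mark the start of adenosine handling. Nt5e acts on the cell surface, Ada and Adk inside the cell. Ada is shown though it was chosen by its difference. Each run is the 250 bases before the RefSeq start of the gene on build GRCm38.p6, written 5′ to 3′ on the gene's strand, and capitals mark GC boxes, the letters GGGCGG on either strand, with overlapping matches joined. The genes span 88327609 to 88372089 on chromosome 9 (Nt5e), 163726571 to 163750239 on chromosome 2 (Ada) and 21052574 to 21448569 on chromosome 14 (Adk). The stretch of Nt5e lies on the plus strand (chr9:88327359-88327608), that of Ada on the minus strand (chr2:163750240-163750489) and that of Adk on the plus strand (chr14:21052324-21052573).
Nt5e: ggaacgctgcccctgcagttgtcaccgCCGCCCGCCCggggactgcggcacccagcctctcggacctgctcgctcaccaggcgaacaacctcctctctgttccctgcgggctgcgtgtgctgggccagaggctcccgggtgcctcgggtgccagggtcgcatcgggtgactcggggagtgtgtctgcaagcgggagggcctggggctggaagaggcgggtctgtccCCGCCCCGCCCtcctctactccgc
Ada: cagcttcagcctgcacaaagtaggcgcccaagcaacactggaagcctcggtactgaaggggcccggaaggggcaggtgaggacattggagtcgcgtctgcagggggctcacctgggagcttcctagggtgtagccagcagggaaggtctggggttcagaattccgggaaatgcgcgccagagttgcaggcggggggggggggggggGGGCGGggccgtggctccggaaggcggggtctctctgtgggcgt
Adk: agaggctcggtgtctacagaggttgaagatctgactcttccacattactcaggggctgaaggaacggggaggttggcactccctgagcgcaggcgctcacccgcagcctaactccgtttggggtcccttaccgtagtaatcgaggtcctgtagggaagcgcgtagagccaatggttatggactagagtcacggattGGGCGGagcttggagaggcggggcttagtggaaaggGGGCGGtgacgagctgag

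The stretch of Nt5e held 4 GC boxes, that of Ada 1 and that of Adk 2, and none held the TATA box letters TATAAA. Of 32851 mouse promoter stretches of the same length, 32.7% held a GC box and 12.4% held TATAAA, both strands searched. G and C made up 72.0%, 67.2% and 58.8% of the 3 stretches, against a median of 52.4%. The core that hypoxia-inducible factors bind, ACGTG or GCGTG on either strand, was found once upstream of Nt5e (GCGTG, 138 bases before the start) and not upstream of Ada or Adk, and 38.6% of all stretches hold it. These matches describe letters and say nothing of binding.

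Nt5e, which makes adenosine from AMP, rose in knockout cells. Knockout replicates 1, 2 and 3 gave 10.91, 10.31 and 13.01, and control replicates gave 8.41, 7.59 and 7.50. The groups did not overlap, and knockout replicate 3 stood highest by far. The change was 3.58 ± 0.62 (log2 ± SE, n = 3 each), an 11.9-fold difference (limma, adjusted p = 0.0082). Without knockout replicate 3 it was 2.78 (limma, adjusted p = 8.9e-04).

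Nt5e was read by 3 probe sets that differed in brightness. The second brightest read 7.90, 7.45 and 9.82 in knockout arrays, against 7.07, 6.78 and 7.21 in control arrays. It too was higher in every knockout array and highest in replicate 3, by 1.37 ± 0.51, but missed the threshold when all probe sets were tested (limma, adjusted p = 0.125). The dimmest had means of 5.08 in knockout and 5.05 in control cells (SD 0.09 and 0.05, n = 3 each). When the 3 were averaged, the change of Nt5e was 1.66 (limma, adjusted p = 0.0225).

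In rescue cells the brightest Nt5e probe set read 10.66, 9.87 and 10.32. Of the rescue arrays, replicate 2 lay below every knockout array and the others within the knockout range. Rescue differed from knockout by -1.13 ± 0.62 (limma, adjusted p = 0.36; 95% interval -2.53 to 0.28). The difference was -0.33 without knockout replicate 3 and -2.72 with that replicate alone for knockout. With fibroblast marker level added to the fit it was -2.32, which then passed (limma, adjusted p = 0.029). Fibroblast level varied mostly among knockout arrays, so that fit leans on knockout replicate 3 and is no separate check. Nt5e in rescue lay above control in every array, by 2.45 ± 0.62 or 5.47-fold. That change missed the threshold over all genes (limma, adjusted p = 0.29, unadjusted p = 0.0036), but passed without knockout replicate 3 (limma, adjusted p = 0.019). The fit shares 1 estimate of spread over the 3 groups, and the SD of Nt5e was 1.42 in knockout, 0.40 in rescue and 0.50 in control arrays. With only rescue and control arrays in the fit it passed (limma, adjusted p = 0.026), and it passed in 4 of 19 alternatives. Of the 8 genes 0 passed in that comparison, and 2 (Ada and Nt5e) at an unadjusted p under 0.05. Over all genes 0.126% passed, 0.055% higher and 0.0715% lower, while 16.6% did not overlap, 6.74% higher and 9.9% lower.

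**Figure D2:**
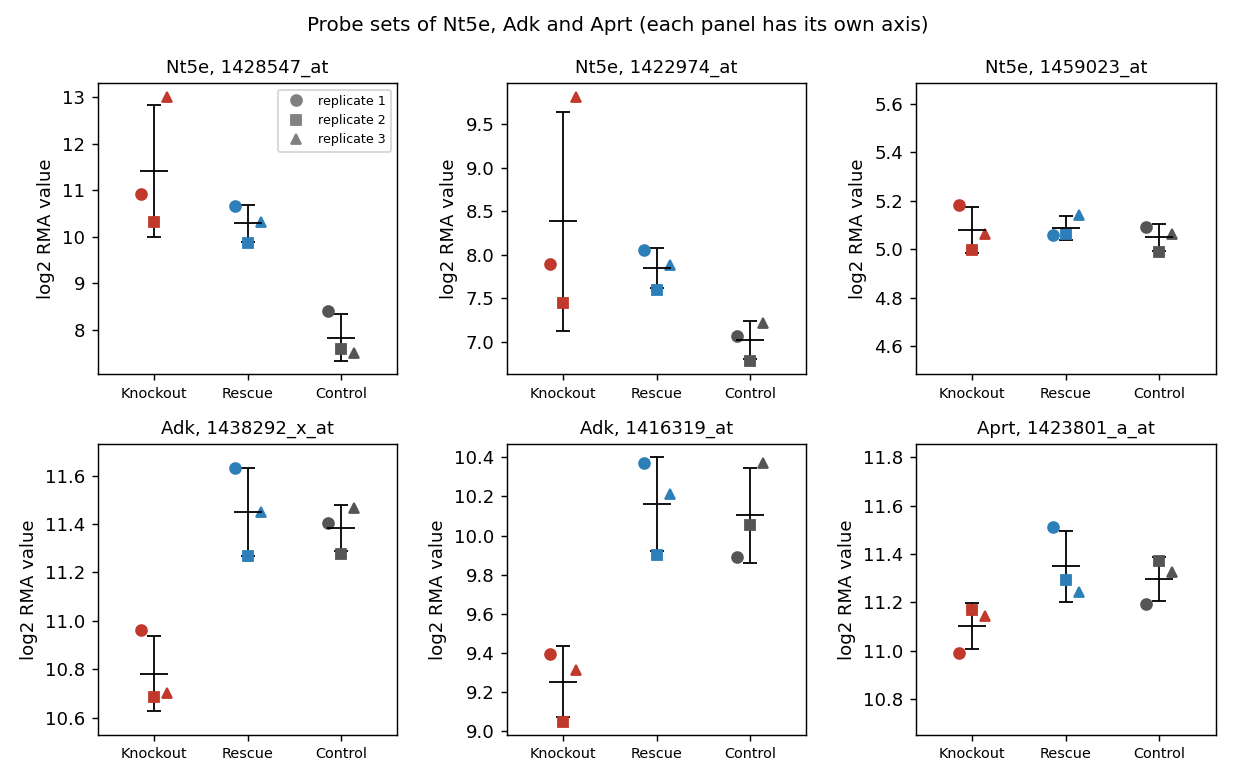
Log2 RMA values of the 3 Nt5e probe sets, the 2 brightest Adk probe sets and the second Aprt probe set, by genotype, with symbols for replicates and bars for mean and SD (n = 3). The 2 brighter Nt5e probe sets lie higher in every knockout and rescue array than in control, the dimmest stays between 4.99 and 5.18, and both Adk probe sets are lowest in knockout.

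Ada, which turns adenosine into inosine and deoxyadenosine into deoxyinosine, had the widest range of the list. Its single probe set read 11.02, 11.63 and 13.66 in knockout replicates 1, 2 and 3, against 7.86, 7.61 and 6.77 in control replicates. The lowest knockout array was more than 3 log2 units above the highest control array. The difference was 4.69 ± 0.68 or 25.8-fold, and it is given as a description without a test, since this change was known when the list was drawn up. Without knockout replicate 3 it was 3.91.

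In rescue cells Ada read 9.69, 9.96 and 11.25, between the other two genotypes. The rescue arrays lay above every control array, and 1 of them above the lowest knockout array. The change of rescue relative to knockout was -1.81 ± 0.68 (95% interval -3.35 to -0.26; limma, adjusted p = 0.20), which did not pass over all genes. It was -1.03 without knockout replicate 3, -3.36 with that replicate alone for knockout, and -3.17 with fibroblast marker level added to the fit, which then passed (limma, adjusted p = 0.011). Against control, rescue was higher by 2.89 ± 0.68 or 7.39-fold (limma, adjusted p = 0.23; unadjusted p = 0.0024), which did not pass either, except without knockout replicate 3 (adjusted p = 0.034) and in 3 other fits. The 3 comparisons share arrays, so their values are set side by side and not counted as separate evidence. Both comparisons with rescue reuse the knockout or control arrays by which Ada was chosen. Their p-values for Ada are therefore given as values and not as evidence.

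Ada and Nt5e had a like order of arrays, with knockout replicate 3 highest and control replicate 3 lowest for both. Among 9095 genes brighter than the median gene, those most like Ada over the 9 arrays were Rab27b (Pearson r = 0.973), a small GTPase of secretory vesicles, the hormone gene Cck (0.971), B4galnt2 (0.970), a glycosyltransferase, and Anxa10 (0.970), an annexin. Those most like Nt5e were the mitochondrial glycerol phosphate dehydrogenase Gpd2 (0.967), again Rab27b (0.964), the gastric lipase gene Lipf (0.963) and the hormone gene Gip (0.963). These are descriptions over arrays that share 3 genotypes, with no test. Ada was chosen by its difference between knockout and control, so genes with a like difference rank high beside it by construction. Anxa10 and Lipf were dim in control arrays (means 5.43 and 5.12). They passed the brightness limit only through their higher knockout and rescue arrays.

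Fibroblast markers moved in some of the same arrays but in another order. Of the 17 measured, 3 were higher and 0 lower between knockout and control (limma). All 17 had a positive change, and the median change was 2.43. Their summed linear signal was 38410 in knockout replicate 1, 29337 in replicate 2 and 4555 in replicate 3. It was 4451 to 7309 in rescue arrays and 2800 to 3988 in control arrays. Knockout replicate 3, with fibroblast markers near control, had the highest Ada and the highest Nt5e of all arrays. When that array alone stood for knockout, the change was 6.25 for Ada and 5.17 for Nt5e, given as values of 1 array with no test. With fibroblast marker level added to the fit the change was 6.58 and 5.22. Fibroblast level varied mostly among knockout arrays, so that fit leans on the same array and is no separate check.

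**Figure D3:**
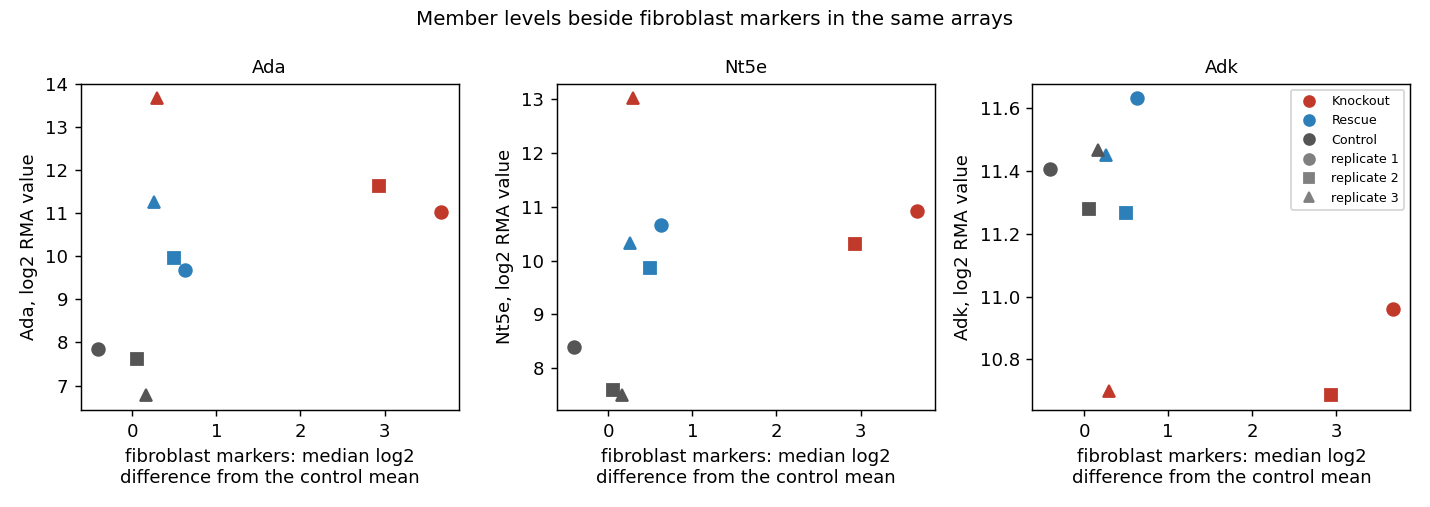
Log2 RMA values of Ada, Nt5e and Adk (vertical axes) in each array against the median log2 difference of 17 fibroblast markers from the control mean (horizontal axes); colours mark genotype and symbols the replicate. Knockout replicate 3, at 0.29 on the horizontal axis, has the highest Ada and Nt5e, while knockout replicates 1 and 2 lie at 3.68 and 2.93.

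Markers of other cells that can hold much Ada gave mixed values. Of 11 squamous epithelial markers, 1 was higher in knockout cells (Ivl, by 1.37) and 0 lower, 9 had a positive change and the median change was 0.09 (limma). Their summed signal was 733 to 829 in knockout arrays, 600 to 691 in rescue arrays and 601 to 616 in control arrays. The defining squamous gene Krt5 averaged 6.30 ± 0.10 in knockout cells and 6.36 ± 0.04 in control cells, and Krt13 4.003 ± 0.34 and 3.96 ± 0.15 (SD, n = 3 each). Krt14, also of squamous cells, read 6.21, 7.33 and 5.22 in knockout replicates 1, 2 and 3 and 4.99 to 5.42 in control arrays. Of 12 leukocyte markers 2 were higher (Lyz2 by 2.59 and Tyrobp by 1.49) and 2 lower (Csf1r and Lcp1, with changes of -0.90 and -1.43), while 9 had a positive change and the median change was 0.50 (limma). Ptprc, found on all leukocytes, read 7.41, 7.27 and 5.75 in knockout replicates 1, 2 and 3 and 4.98 to 6.01 in control arrays. The summed leukocyte signal mainly followed Csf1r, the brightest gene of that list. This sum was 6740 to 8447 in knockout, 6438 to 9217 in rescue and 9963 to 12610 in control arrays. Of 8 markers of proximal small intestine 2 were higher, the hormone genes Gip and Cck, and 0 lower (limma). Only 4 of the 8 had a positive change, and the median change was 0.03. The summed signal of the 8 was 14869 to 20388 in knockout, 16114 to 17745 in rescue and 15961 to 16660 in control arrays. The part of these cells in the Ada signal was not tested.

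Adk, which recycles adenosine to AMP, fell in knockout cells. It read 10.96, 10.69 and 10.70 in knockout arrays, against 11.4, 11.3 and 11.5 in control arrays. Every knockout array lay below every control array, and the 3 knockout values lay close together. The change was -0.60 ± 0.13 (1.52-fold lower; limma, adjusted p = 0.018). The call was lost without control replicate 1 (adjusted p = 0.066), control replicate 3 (adjusted p = 0.078) or knockout replicate 2 (adjusted p = 0.051). When knockout replicate 3, with fibroblast markers near control, stood alone for knockout, the change was -0.68, a value of 1 array with no test.

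In rescue cells Adk was higher than in knockout cells. It read 11.6, 11.3 and 11.4 in rescue arrays and rose by 0.67 ± 0.13 relative to knockout, without overlap (limma, adjusted p = 0.037). It was the 1 gene of 8 past the threshold in that comparison, in which 2.31% of all genes passed, 1.23% higher and 1.08% lower. The rise stayed past the threshold without knockout replicate 1 or 3 but not when any of the other 7 arrays was left out (adjusted p 0.061 to 0.124). Rescue differed from control by 0.07 ± 0.13 (95% interval -0.22 to 0.35).

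The 6 probe sets of Adk all gave a lower mean in knockout than in control. The second brightest read 9.40, 9.05 and 9.31 in knockout arrays, 10.4, 9.90 and 10.2 in rescue arrays and 9.89, 10.1 and 10.4 in control arrays. Tested over all probe sets it fell by 0.85 ± 0.17 in knockout (limma, adjusted p = 0.016) and rose by 0.91 ± 0.17 in rescue relative to knockout (limma, adjusted p = 0.041). The other four, with means over all arrays of 5.01 to 6.03, gave changes of -0.15 to -0.80 between knockout and control, and none of them passed. The brightest ends in _x_at, which marks probes that can match other transcripts, and the second does not.

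**Figure D4:**
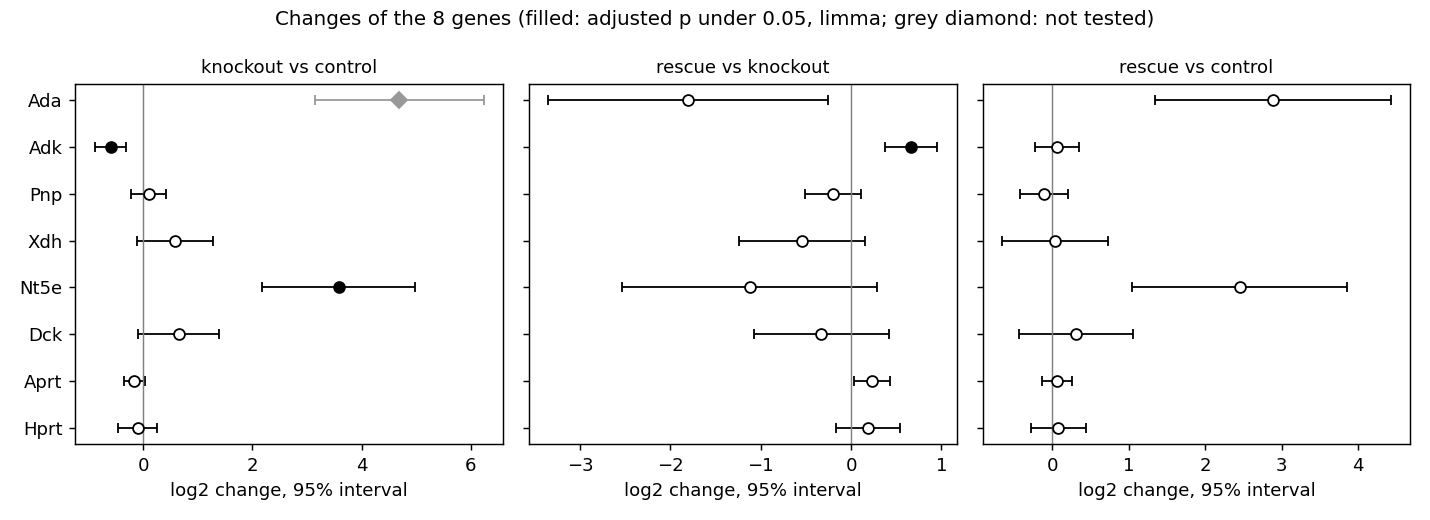
Log2 change (points) with 95% interval (bars, limma, 3 arrays per genotype) of the 8 genes in the 3 comparisons; filled points have an adjusted p under 0.05, and the grey diamond is Ada between knockout and control, shown without a test. Filled points are Adk and Nt5e between knockout and control and Adk between rescue and knockout, and no point is filled between rescue and control.

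Genes that act on inosine, guanosine and free bases did not pass the threshold in any of the 3 comparisons over the 9 arrays without covariates. Pnp, which releases hypoxanthine and guanine, read 11.98, 11.65 and 12.08 in knockout arrays, 11.70, 11.58 and 11.82 in rescue arrays and 11.72, 11.74 and 11.96 in control arrays. The groups overlapped throughout. The interval of its change between knockout and control was -0.22 to 0.41, so a 2-fold change in either direction lay outside it. A probe set shared with the neighbouring copy Pnp2 was left out, and whether the Pnp signal includes Pnp2 was not tested.

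Hprt, which returns hypoxanthine and guanine to nucleotides, read 10.8, 10.7 and 10.3 in knockout arrays, 10.98, 10.72 and 10.76 in rescue arrays and 10.6, 10.8 and 10.8 in control arrays. Knockout replicate 3 was lowest. Its change between knockout and control was -0.10 (95% interval -0.46 to 0.25). With fibroblast marker level added to the fit it was -0.51, which then passed (limma, adjusted p = 0.045). That fit leans on knockout replicate 3, the lowest array. Hprt lies on chromosome X, and the Xist values above differ between rescue and the other genotypes.

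Aprt, which returns adenine to AMP, differed by a small amount. It read 11.56, 11.64 and 11.64 in knockout arrays, 11.94, 11.81 and 11.77 in rescue arrays and 11.75, 11.77 and 11.81 in control arrays. No knockout array reached any array of the other genotypes, yet neither the change of -0.17 ± 0.09 from control (limma, adjusted p = 0.24) nor that of 0.23 ± 0.09 in rescue relative to knockout (limma, adjusted p = 0.20) passed. The second Aprt probe set gave -0.19 and 0.25 for the same comparisons, likewise not past the threshold. In all, 4 of 8 genes did not overlap between knockout and control, Ada and Nt5e higher and Adk and Aprt lower. Ada is in this count though it was chosen by this difference, so it lends the count no weight. Of all genes 32.4% did not overlap, 12.7% higher and 19.7% lower. Between rescue and knockout 2 of 8 did not, both higher, where 18.1% of all genes did not, 10.6% higher and 7.5% lower.

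Xdh, the xanthine oxidoreductase that makes uric acid and holds iron-sulfur clusters, stood apart in a single array. It read 8.92, 9.21 and 10.3 in knockout replicates 1, 2 and 3, 8.96, 8.96 and 8.89 in rescue arrays and 8.87, 8.77 and 9.05 in control arrays. Knockout replicate 3 was far above the rest, and replicate 1 lay within the control range. The change between knockout and control was 0.58 ± 0.30 (limma, adjusted p = 0.24), and when replicate 3 alone stood for knockout it was 1.41, a value of that 1 array with no test. With fibroblast marker level added to the fit it was 1.47 (limma, adjusted p = 0.0044). That fit leans on replicate 3 too, as fibroblast level varied mostly among knockout arrays. Rescue relative to knockout gave -0.54 ± 0.30 (limma, adjusted p = 0.37), and -1.19 in that fit (limma, adjusted p = 0.011). The genes most like Xdh over the 9 arrays were Plekha1 (r = 0.986), the lipin gene Lpin3 (0.983), the glycolipid transfer gene Gltp (0.9751) and Cdc73 (0.972).

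Dck showed the opposite split of knockout arrays. It read 8.78, 8.81 and 7.68 in knockout replicates 1, 2 and 3, 8.28, 7.58 and 8.41 in rescue arrays and 7.77, 7.96 and 7.60 in control arrays. Replicates 1 and 2 lay above every control array and replicate 3 within the control range. The change was 0.65 ± 0.33 (limma, adjusted p = 0.23) and 1.02 without knockout replicate 3 (limma, adjusted p = 0.015). Fibroblast markers were high in the same 2 arrays, and with their level added to the fit the change was -0.16. That fit leans on knockout replicate 3 and is no separate check. Smooth muscle markers split alike, with medians of 3.28, 1.69 and 0.15 relative to control in knockout replicates 1, 2 and 3. The part of other cells in the Dck signal was not tested. The second of 3 Dck probe sets split the same way: it read 6.56, 6.203 and 5.56 in knockout arrays, against 5.06, 5.75 and 5.23 in control arrays (0.76 ± 0.32; limma, adjusted p = 0.163). The dimmest did not, with means of 5.05 in knockout and 5.02 in control cells (change 0.03; limma, adjusted p = 0.93).

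The rest of the purine network was set beside these genes. Of 85 listed genes 68 were measured, and between knockout and control 3 were higher and 7 lower, 4.41% and 10.3% of them. That is near the 5.29% and 8.77% of all genes, and the median change of the 68 was 0.01, against -0.04 for all genes. In rescue relative to knockout, and in rescue relative to control, 0 of the 68 passed in limma's test, with 6 and 10 at an unadjusted p under 0.05.

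Genes that form, carry or sense adenosine had 1 of 17 higher and 1 lower. Enpp3, a surface enzyme that cuts ATP to AMP, read 12.44, 12.33 and 13.31 in knockout arrays, 12.56, 12.55 and 12.43 in rescue arrays and 11.9, 11.6 and 11.9 in control arrays. Like Nt5e it was highest in knockout replicate 3 and higher in every rescue array than in control. It rose by 0.90 ± 0.23 in knockout cells (limma, adjusted p = 0.037), and by 0.59 without knockout replicate 3. Averaged over its probe sets, the rise was 0.61 and did not pass (limma, adjusted p = 0.12). Slc29a3, a nucleoside transporter of inner membranes, read 7.45, 7.68 and 7.76 in knockout arrays, against 8.68, 8.24 and 8.62 in control arrays, and fell by 0.88 ± 0.19 (limma, adjusted p = 0.019). With its probe sets averaged the change was -0.54 and did not pass (limma, adjusted p = 0.068).

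Genes of interconversion and breakdown had 2 of 22 higher and 3 lower. Ak4, a mitochondrial adenylate kinase, read 7.87, 8.23 and 6.73 in knockout arrays, 7.21, 6.90 and 7.04 in rescue arrays and 5.35, 5.75 and 5.59 in control arrays. All arrays with the deletion lay above control, where the mean of 5.565 was among the dimmest 40% of genes (limit 6.18). The rise in knockout was 2.05 ± 0.33 on this probe set (limma, adjusted p = 0.0066). Its size depended on the probe sets and arrays used: it was 1.56 without probe sets ending in _x_at or _s_at, 0.74 with all Ak4 probe sets averaged, 1.17 with knockout replicate 3 alone and 1.10 with fibroblast marker level added to the fit. Nt5c2, a nucleotidase of the cytosol that acts on IMP and GMP, rose by 0.90 ± 0.13 (limma, adjusted p = 0.0042), or by 0.49 with its probe sets averaged. Adal, related to Ada by sequence, moved the other way from Ada and fell by 0.92 ± 0.14 (limma, adjusted p = 0.0056). It read 6.18, 6.29 and 6.44 in knockout arrays, against 7.16, 7.33 and 7.18 in control arrays. The nucleotidase Nt5c fell by 0.45 ± 0.11 and Urah, of uric acid breakdown, by 1.10 ± 0.31 (limma, adjusted p = 0.029 and 0.048). Urah read 8.66, 8.63 and 9.91 in knockout arrays and 8.89, 9.29 and 9.06 in rescue arrays, against 10.1 to 10.2 in control arrays. Its change was -0.26 when knockout replicate 3 alone stood for knockout and -0.18 with fibroblast marker level added to the fit (limma, adjusted p = 0.56 for the second).

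**Figure D5:**
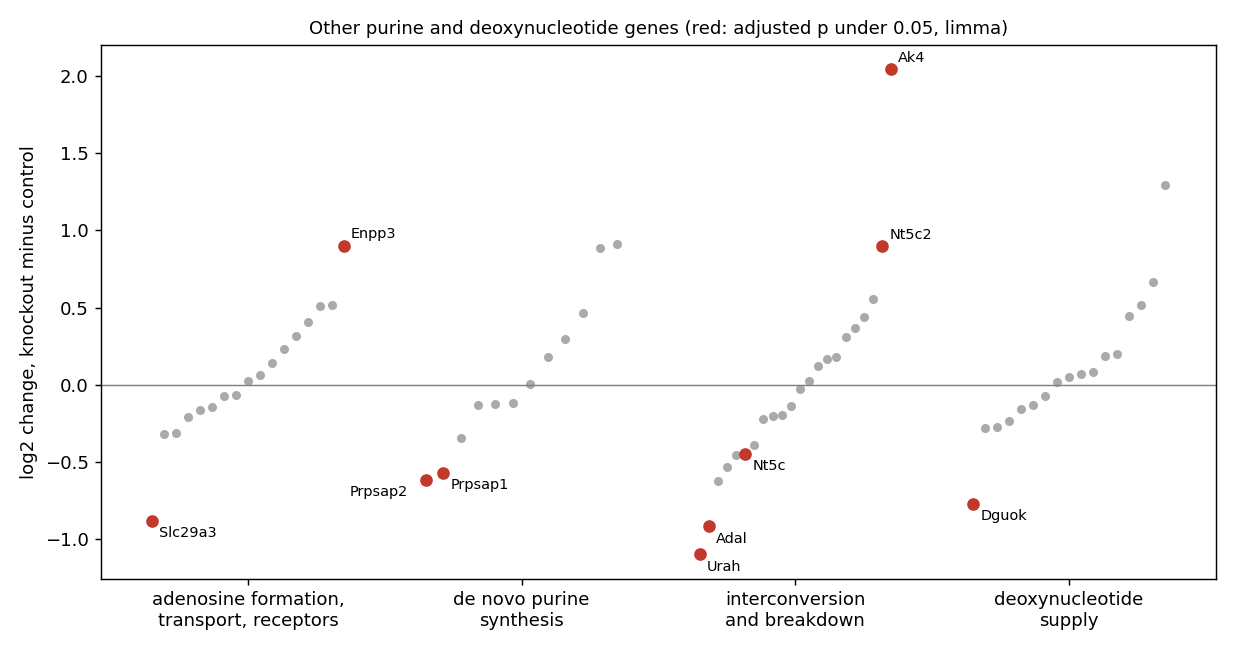
Log2 change between knockout and control (vertical axis) of 68 other purine and deoxynucleotide genes, 1 point each, ordered by change within 4 lists; red points have an adjusted p under 0.05 (limma). Red points are 3 higher genes (Enpp3, Nt5c2 and Ak4) and 7 lower genes.

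De novo synthesis had 2 of 12 lower and 0 higher: Prpsap1 and Prpsap2, partners of the enzyme that makes phosphoribosyl pyrophosphate, fell by 0.57 ± 0.12 and 0.62 ± 0.14 (limma, adjusted p = 0.020 and 0.023). Deoxynucleotide supply had 1 of 17 lower and 0 higher: Dguok, the mitochondrial deoxyguanosine kinase, fell by 0.77 ± 0.19 (limma, adjusted p = 0.033). In both lists knockout replicate 3 stood lowest. Relative to control, the median of de novo genes was 0.02, 0.51 and -0.64 in knockout replicates 1, 2 and 3, and 9 of the 12 genes had their lowest value of all arrays in replicate 3, where 17.1% of all genes did. Of the deoxynucleotide genes 9 of 17 were lowest there. Paics, a de novo enzyme picked after its values were seen, read 10.004, 10.07 and 7.50 in knockout replicates 1, 2 and 3, against 7.77, 8.86 and 8.21 in control arrays.

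Most calls in these lists were lost in some fits that left out a single array, while the changes kept their sign. Prpsap1, for 1, ranged from -0.62 to -0.52. Leaving out any control array also lowered the number called over all genes. Nt5c2 and Ak4 stayed past the threshold under all 20 alternatives and Adal under 19 of them. Among these is a fit with a single knockout array, which is no test. Without any one of the 3 control arrays Enpp3, Prpsap1, Prpsap2, Nt5c, Urah and Dguok missed it, with an adjusted p of 0.052 to 0.13. Slc29a3 missed it without control replicate 1 or 3 or knockout replicate 1, and Urah was called under 5 of the 20.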

How the data were processed

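Total RNA of 9 samples was read on microarrays. The deposited values are log2 RMA values, and RMA and Partek 6.5 are named per the submitters' processing notes, with no role stated. Each of the 9 arrays has 45101 probe sets, and 0 of 36 pairs of arrays had identical values. Values were used as deposited. Of the probe sets, 34945 carried a single gene symbol in the platform annotation and gave 18193 genes, each read by its brightest probe set.

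The fit used limma 3.58.1 (R 4.3.3), with 3 group means over all 9 arrays (lmFit, eBayes). Its two-sided p-values were adjusted by Benjamini-Hochberg across the 18193 genes, with a threshold of 0.05. The code was tested on simulated data. Depth does not apply to arrays; their number limits the precision. Promoters come from RefSeq, GRCm38.p6.

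The members, lists and tests were chosen with earlier results of these data known. The rule for named genes took all members, up to 5 called genes with the smallest p from each other list and comparison, 4 genes most like Ada, Xdh and Nt5e, and Tfrc. Alternatives changed the probe set rule, the dim filter, arrays in the fit, weights, the variance prior, scaling, the replicate block, a fibroblast covariate and left out each array.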

Additional observations from a re-analysis of the deposited data

How the results depend on the processing

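Across 20 alternatives (19 for rescue against control), Nt5e stayed past the threshold between knockout and control, with changes of 1.66 to 5.22, and Adk did in 17. The change of Ada, a description, was 3.91 to 6.58. Replicate numbers showed no steady pairing of arrays. Correlations of deviations at replicates 1, 2 and 3 were -0.22, 0.34 and -0.01 for knockout and control. They were 0.40, -0.11 and -0.07 for rescue and knockout, and 0.01, -0.11 and -0.15 for rescue and control. Whether replicate 1 of rescue and of knockout share a source was not tested. The replicate block gave 2404 genes between knockout and control, 257 between rescue and knockout and 12 between rescue and control, and changed no member's call.

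Between knockout and control, 2559 genes and 3 members were called, Ada counted. Only the 2 groups gave 1655 genes, array weights 6395 and single arrays left out 936 to 4998 genes and 2 to 4 members. The fibroblast covariate gave 5 members. Without control replicates 1, 2 and 3 the genes were 1102, 1212 and 936, without knockout replicate 1 they were 1629 and without replicate 3 they were 4998. Between rescue and knockout, 420 genes and 1 member were called. Only the 2 groups gave 30 and 0, array weights 2453 genes, the fibroblast covariate 924 and 4, knockout replicate 3 as sole knockout array 1096 and 4, and single arrays left out 105 to 2793 and 0 to 1. Between rescue and control, 23 genes and 0 members were called. Every probe set tested gave 42, trend and robust 14 and quantile normalization 15 genes, while only the 2 groups gave 149 and 2, array weights 355 and 2, the fibroblast covariate 112 and 2, and single arrays left out 2 to 136 and 0 to 2. The 2 members were Ada and Nt5e, and for Ada such a call reuses the control arrays by which it was chosen. Where 1 array stands for a group, it is assumed to vary like the other groups. The causes were not tested.

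Signs turned for uncalled changes only. With array weights Pnp was -0.14 (knockout against control) and Xdh -0.014 (rescue against control). For Dck, the fibroblast covariate gave -0.16 and knockout replicate 3 alone -0.099 (knockout against control), and 0.26 and 0.42 for rescue against knockout. Hprt was -0.030 for rescue against control with the covariate. With single arrays left out, Hprt ranged from -0.21 to 0.059 (knockout against control), Xdh from -0.023 to 0.12 and Adk from -0.024 to 0.16 (rescue against control). The 3 arrays per group limit the precision.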
